A study of Homo sapiens with 4 samples.

Results

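The genes described here are the transcriptional co-activator YAP (YAP1), its paralog TAZ (WWTR1), the DNA-binding partners TEAD1 and TEAD4, and 6 target genes or regulators of the same pathway, CCN1, CCN2, ANKRD1, AMOTL2, AJUBA and LATS2. They were chosen by name, with earlier results of these data known. Each was read at every probe whose array annotation is a RefSeq transcript of that gene. This gave 1 probe for each of the 10 genes among 20497 genes that could be named on the array. The probes match the transcripts NM_006106 (YAP1), NM_015472 (WWTR1), NM_021961 (TEAD1), NM_003213 (TEAD4), NM_001554 (CCN1), NM_001901 (CCN2), NM_014391 (ANKRD1), NM_016201 (AMOTL2), NM_032876 (AJUBA) and NM_014572 (LATS2). The YAP1 probe was spotted 10 times on each array and the other 9 probes once.

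RNA came from MCF-10A, an established line of non-malignant human mammary epithelial cells, cultured in serum-free mammary medium with growth supplements and cholera toxin. From 48 h after seeding, cultures received 10 µM of a peptide whose helix is held by a hydrocarbon staple. One peptide is labelled stapled-peptide and the other non-specific stapled-peptide, and the treatment of the latter is also labelled control. RNA was taken after 24 h or 48 h, and 4 arrays of 1 slide, scanned together, cover both peptides at both times with 1 array each. The arrays are called S24 and S48 for stapled-peptide and N24 and N48 for the non-specific one, after the hours of treatment. All 4 groups share the cell line, the medium and the dose, none is untreated, and the labels do not name the peptide sequences. With 1 array for each peptide and time, no test between groups was possible, no p-value is given, and every difference compares arrays and not conditions.

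YAP and TAZ do not bind DNA themselves. In the nucleus they join TEAD factors on promoters and enhancers and raise transcription of genes for matrix proteins, cytoskeletal regulators and growth. Of the Hippo kinases, MST activates LATS, and LATS phosphorylates YAP and TAZ and holds them in the cytoplasm. Spread epithelial cells on a stiff surface are known for nuclear YAP. Several targets, among them LATS2 and AMOTL2, encode inhibitors of YAP, so the pathway restrains itself. The arrays measure transcripts, whereas YAP is controlled largely by phosphorylation and localization, which they do not measure.

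N48, the array labelled as the later time of the non-specific peptide, stood apart from the other 3. Over probes well above background on at least 1 array of a pair, its log2 signals correlated with theirs at 0.799 to 0.807, against 0.976 to 0.978 among the other 3. Its markers went against the labelled cell type. The summed signal of 10 basal mammary epithelial markers, on the log2 scale, was 16.71 to 16.74 on the other 3 arrays and 9.16 here, with KRT6A as the 1 marker not well above background, and the basal keratin KRT5 read 14.65, 14.54 and 14.59 on the others and 5.02 here. The summed signal of 8 luminal epithelial markers was 14.90 to 14.98 on the others and 12.70 here, with KRT18 and KRT8 lower than on S48 by more than 4-fold. FOXA1, KRT19 and EPCAM were higher than on S48, and the median difference of the 7 luminal markers that had one was -0.15. The summed signal of 7 fibroblast markers was 14.85 to 14.97 on the others and 7.56 here. DCN made up nearly all of that sum on the others, where it read 14.84, 14.96 and 14.88, and it read 5.73 here. COL1A1 (0.13) and LUM (0.19, a bound) were higher than on S48. No difference could be read for COL1A2 and COL3A1, whose signals stayed too close to background. PDGFRA and PDGFRB were lower than on S48 (-2.12 and -1.84, bounds). In the other direction, the summed signal of 10 genes known from embryonic kidney cell lines was 9.65 to 9.75 and 15.55, with 3 or 4 of the 10 above background on the other arrays and 7 on this one. Of these, LIN28B was not well above background on the other 3 arrays and read 12.86 here. At their brightest probes PAX2 and L1CAM were instead lower than on S48 (-0.59 and -0.58, bounds), while another probe of PAX2 was higher by a bound of 3.89. PHOX2A was not well above background on any array. The summed signals of 4 blood and 4 endothelial markers were 9.68 to 9.78 and 9.40 to 9.56 on the others, and 7.95 and 5.96 here. Every difference that uses N48 carries that gap, which cannot be told apart from peptide and time. Such differences are therefore given beside those among the other 3 arrays. In bulk RNA, fewer cells of a type and less RNA per cell also cannot be told apart.

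TEAD factors recognize the motif GGAATG, known as the MCAT element. It was searched on both strands, as GGAATG and CATTCC, in RefSeq promoter windows of the build GRCh38.p14 that run from 250 bases before to 50 after a transcript start. Of 35116 windows, 4928 (14.0%) held at least 1 match, 1.37% at least 2 and 0.128% at least 3. A window was on hand for 7 of the 10 genes, in 10 windows, and 6 of these held a match. CCN2 held 3 matches, at -169, -104 and -95 from its start, and ANKRD1 held 2, at -220 and -128. YAP1 held 1 at -162 and LATS2 1 at 10 bases past its start. AJUBA held 1 at -59 and AMOTL2 1 at -69, both in 1 of their 2 windows, and neither window of WWTR1 held one. A match is a description of letters, and binding of TEAD was not measured here.

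The 250 bases before the start are shown, on the coding strand, for the 2 genes with more than 1 match and for AMOTL2, a target that read far lower on N48, with matches in capitals. The windows lie on the minus strand at chr6:131951373-131951622 (CCN2), chr10:90921088-90921337 (ANKRD1) and chr3:134374448-134374697 (AMOTL2).
CCN2: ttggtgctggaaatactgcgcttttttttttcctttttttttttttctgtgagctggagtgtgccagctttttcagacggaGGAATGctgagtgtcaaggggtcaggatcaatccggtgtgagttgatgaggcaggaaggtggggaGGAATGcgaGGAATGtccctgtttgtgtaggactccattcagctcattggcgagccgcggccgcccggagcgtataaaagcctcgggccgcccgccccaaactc
ANKRD1: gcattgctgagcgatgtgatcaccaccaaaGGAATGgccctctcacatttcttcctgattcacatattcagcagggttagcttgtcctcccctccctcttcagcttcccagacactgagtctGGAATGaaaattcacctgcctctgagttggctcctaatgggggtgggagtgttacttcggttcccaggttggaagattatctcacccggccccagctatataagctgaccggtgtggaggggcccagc
AMOTL2: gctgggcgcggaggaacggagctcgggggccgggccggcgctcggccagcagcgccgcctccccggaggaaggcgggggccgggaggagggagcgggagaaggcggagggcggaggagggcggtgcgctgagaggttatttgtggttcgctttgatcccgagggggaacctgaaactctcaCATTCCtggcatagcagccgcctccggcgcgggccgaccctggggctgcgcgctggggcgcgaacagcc
In CCN2, 2 of the 3 matches stand 3 bases apart, and in AMOTL2 the match is the reverse complement.

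At 24 h the 10 genes read nearly alike with both peptides. Peptide differences are given as normalized log2 signal, N24 minus S24 or N48 minus S48, so that 1 unit is 2-fold. They ran from -0.15 (TEAD4) to 0.13 (TEAD1), with a median of -0.03 against 0.01 over all 16225 genes that had a difference. No gene of the 10 passed 4-fold in either direction at 24 h, where 0.413% of all genes did. The time difference S48 minus S24 was also small for every gene except ANKRD1. Its median was 0.00, the largest was 0.57 (ANKRD1) and the next largest 0.18 (TEAD1), and none passed 4-fold, as against 0.521% of all genes. For scale, all probes differed between the peptides at 24 h with an SD of 0.43.

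At 48 h, 9 of the 10 genes were lower on N48 than on S48, and TEAD4 was higher. The median difference was -2.61, against 0.03 over all 17109 genes with a difference. Lower by more than 4-fold were 7 of the 10, against 8.7% of all genes, and none was higher by more than 4-fold, against 8.1%. By more than 2-fold 9 were lower (19.8% of all genes), by more than 10-fold 3 (3.92%) and by more than 100-fold 1 (0.707%). The 10 genes were chosen with earlier results of these data known. All 10 were well above background on S48, whereas all genes include some dim on S48, which could not be called lower. Both limits widen the contrast with all genes. The time difference N48 minus N24 gave 7 genes lower by more than 4-fold (8.47% of all genes), with a median of -2.43. With the normexp background correction 4 of the 10 were lower by more than 4-fold at 48 h, as WWTR1, ANKRD1 and LATS2 then read -1.09, -1.40 and -1.51. Both comparisons use N48, and neither exists without it, and the part of the marker gap of N48 in them was not tested. Among the other 3 arrays, the readings of each gene spanned 0.04 to 0.18, except 0.68 for ANKRD1.

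**Figure D1:**
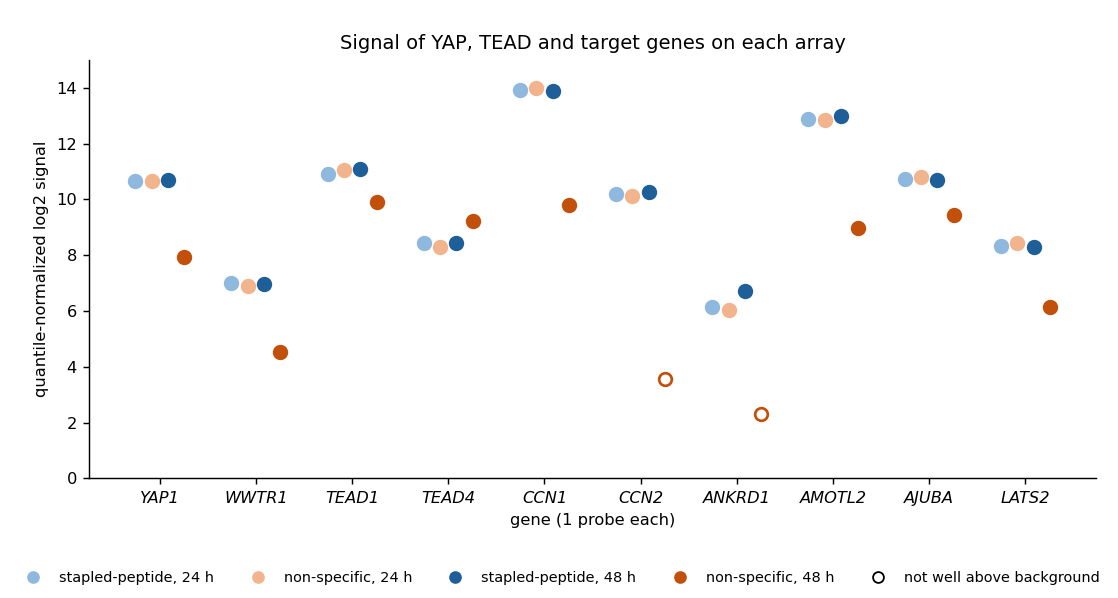
Quantile-normalized log2 signal (vertical axis) of the 10 genes (horizontal axis), 1 point for each array and an open point where the probe was not well above background. The 3 points of each gene from the other arrays lie close together, and N48 is the lowest point for 9 genes and the highest for TEAD4.

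YAP1 was measured best, since its probe had 10 spots and all were used on every array. Its spots read a lowest, median and highest log2 signal of 10.60, 10.67 and 10.76 on S24, 10.54, 10.68 and 10.72 on N24, and 10.66, 10.70 and 10.74 on S48. On N48 they read 7.69, 7.94 and 8.05. The spots of the first 3 arrays overlapped and those of the last lay apart from all of them. Means ± SD over 10 spots were 10.67 ± 0.05, 10.66 ± 0.05, 10.70 ± 0.03 and 7.92 ± 0.11 in the same order. The peptide difference was -0.01 at 24 h and -2.78 (6.87-fold) at 48 h, and the SD covers only the error between spots of 1 array, not that between cultures. Of all genes at 48 h, 5.21% had a difference as low or lower.

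**Figure D2:**
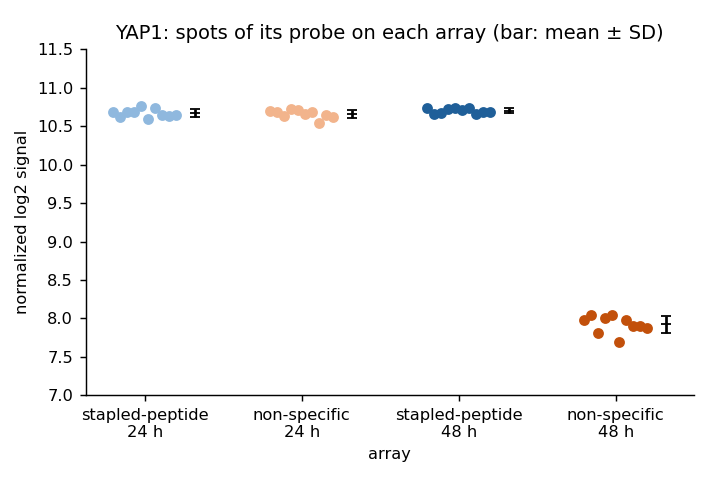
Normalized log2 signal (vertical axis, starting at 7) of the 10 spots of the YAP1 probe on each array (horizontal axis), with the mean and SD of the spots beside them. The spots of 3 arrays lie between 10.54 and 10.76 and those of N48 between 7.69 and 8.05.

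In the values that follow, the 4 log2 signals of a gene are in the order S24, N24, S48 and N48. WWTR1, which encodes TAZ, the paralog that takes the place of YAP on TEAD, read 7.01, 6.91, 6.98 and 4.53. The 3 other arrays lay within 0.10 of each other, and N48 was the lowest. Its difference at 48 h was -2.44 (5.44-fold), from -0.10 at 24 h. The YAP1 difference minus that of WWTR1 was -0.34 at 48 h, smaller in size than the SD of all probe differences at 24 h, so their order cannot be read.

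TEAD1 and TEAD4 both differed by less than 4-fold at 48 h. TEAD1, which carries YAP to DNA, read 10.93, 11.06, 11.10 and 9.89. Its difference was 0.13 at 24 h and -1.21 (2.32-fold lower) at 48 h, where 16.3% of all genes were as low or lower. TEAD4, its paralog with the same role, read 8.45, 8.30, 8.42 and 9.24. It was the single gene of the 10 whose signal was higher on N48, by 0.82 (1.76-fold), and 74.5% of all genes were as low or lower. With normexp TEAD1 read -1.14, close to the -1.09 of WWTR1. The difference of TEAD4 minus that of TEAD1 was 2.03 at 48 h and -0.28 at 24 h.

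The remaining TEAD genes and the VGLL proteins, cofactors that bind TEAD in place of YAP, were a list of 6 genes. Their median difference was -0.20 at 24 h and -0.49 at 48 h. At 48 h 1 was lower and none higher by more than 4-fold, against 8.7% and 8.1% of all genes. The lower gene was VGLL3, with 10.09, 9.89, 10.05 and 6.42 and a difference of -3.63, whereas its second, dimmer probe gave -1.13. TEAD3 read 8.18, 8.38, 8.38 and 6.47, a difference of -1.91. TEAD2 had low signals, with 5.60, 4.41, 4.72 and 5.25, and a difference of -1.19 at 24 h and 0.53 at 48 h. The 4 TEAD genes were split at 48 h, with TEAD1 and TEAD3 lower and TEAD2 and TEAD4 higher, all by less than 4-fold. VGLL4, a repressor of TEAD, differed by -0.52.

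The matricellular targets CCN1 and CCN2 were both lower by more than 10-fold at 48 h. CCN1 (CYR61) encodes a secreted protein that binds integrins and is among the most used readouts of YAP activity. It read 13.92, 13.98, 13.90 and 9.78. Its difference was 0.06 at 24 h and -4.12 (17.4-fold) at 48 h, and over time it was -0.03 from S24 to S48 and -4.20 from N24 to N48. Before normalization its linear signals were 16941, 16943, 14198 and 930.

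CCN2 (CTGF), a related secreted protein of matrix deposition and the gene with 3 motif matches, read 10.20, 10.14, 10.26 and 3.58. On the last array its probe was not well above background, so it was at least 103-fold lower there than on S48, a difference of at most -6.68. With normexp, which adds a constant of 50 to every signal, the difference was -3.85 at 48 h and -3.74 from N24 to N48. This fold is that of the normalized signal on the bright array over the higher of the dim probe's own signal and the lowest signal well above background on the dim array. From N24 to N48 the bound was -6.56. Only 0.690% of all genes were as low or lower than CCN2 at 48 h. CCN2 was the lowest of the 10 in both comparisons, except with normexp, where CCN1 was lower (-4.03 at 48 h and -4.17 from N24 to N48). At 24 h CCN2 differed by -0.07.

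Of the 4 other CCN genes, 2 were lower by more than 4-fold at 48 h, against 8.7% of all genes. CCN5 read 9.64, 9.56, 9.54 and 4.03 (at least 45.4-fold lower) and CCN3 8.36, 8.50, 8.59 and 3.42 (at least 32.6-fold lower), both not well above background on the last array. CCN6 differed by -0.25 near the detection limit, and CCN4 was not well above background on any array. At 24 h CCN3 and CCN5 differed by 0.14 and -0.08, while both were bright on S48.

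ANKRD1, a nuclear and sarcomeric ankyrin-repeat protein, read 6.15, 6.04, 6.72 and 2.29. Its signal was low on every array and not well above background on the last, where the scanner software put the error of its signal at 56.7%. The difference at 48 h was therefore a bound, at least 8.89-fold lower (-3.15), and the linear signals behind it were 73.9, 67.0, 90.7 and 4.55. ANKRD1 was also the gene of the 10 that differed most among the other 3 arrays, with 0.57 more on S48 than on S24.

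AMOTL2, a motin that holds YAP at junctions and is itself a target, read 12.88, 12.83, 13.00 and 8.97. Its difference was -0.05 at 24 h and -4.03 (16.3-fold lower) at 48 h, close to that of CCN1. LATS2, the kinase that phosphorylates YAP and is induced by it, read 8.34, 8.42, 8.28 and 6.15, a difference of 0.08 at 24 h and -2.13 (4.38-fold lower) at 48 h. Its call was also lost without normalization, at -1.79. AJUBA, a LIM protein that binds and restrains LATS kinases, read 10.72, 10.81, 10.70 and 9.45, a difference of 0.08 and then -1.25 (2.38-fold lower).

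**Figure D3:**
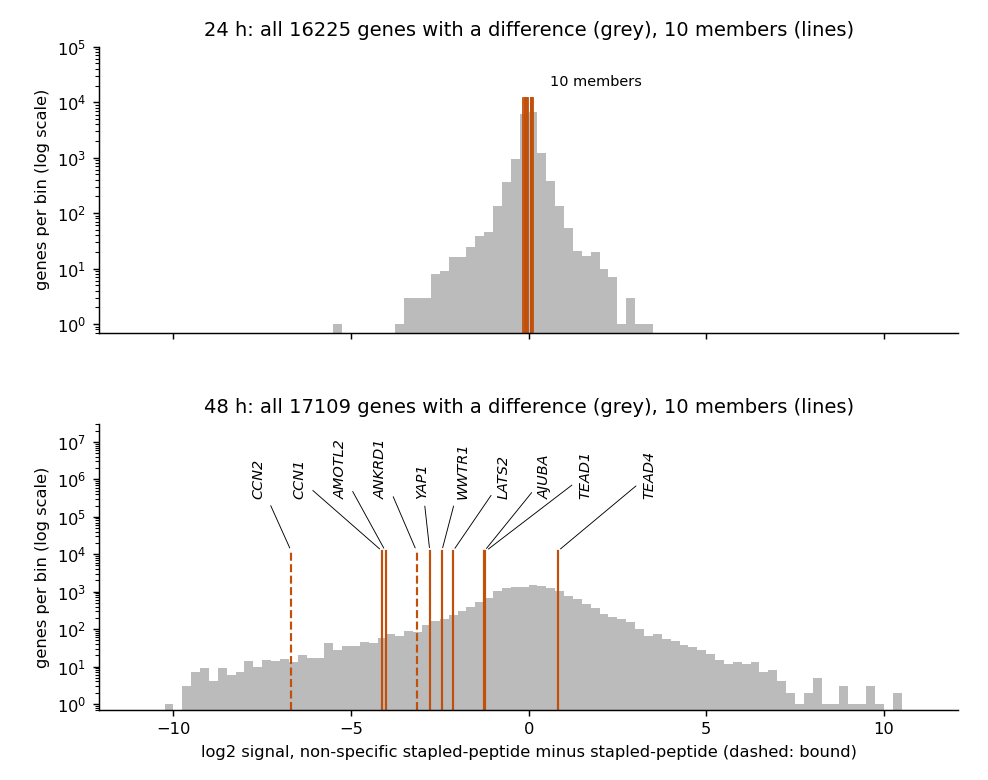
Number of genes (vertical axis, log scale) by log2 difference between the peptides (horizontal axis) at 24 h and at 48 h, in grey, with the 10 genes as vertical lines whose height has no meaning and dashed lines for bounds. At 24 h all 10 lie within 0.15 of 0, and at 48 h the whole distribution is wider and 9 of the 10 lie on its lower side.

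The paralogs of LATS2 and AMOTL2 read otherwise on N48. LATS1, the second LATS kinase, read 4.73, 4.59, 4.69 and 5.07, and its difference minus that of LATS2 was 2.51 at 48 h and -0.22 at 24 h. These signals were near the detection limit, so a fall as large as that of LATS2 could not have been read in full. The second, dimmer probe of LATS1 gave -0.14 at 48 h. AMOTL1 read 8.11, 7.98, 8.20 and 7.67, and its difference minus that of AMOTL2 was 3.50 at 48 h and -0.08 at 24 h. AMOT went the other way. It was not well above background on 3 arrays (2.81, 1.94 and 2.25) and read 11.97 on the last, at least 271-fold above S48, and its second probe gave at least 9.41-fold.

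**Figure D4:**
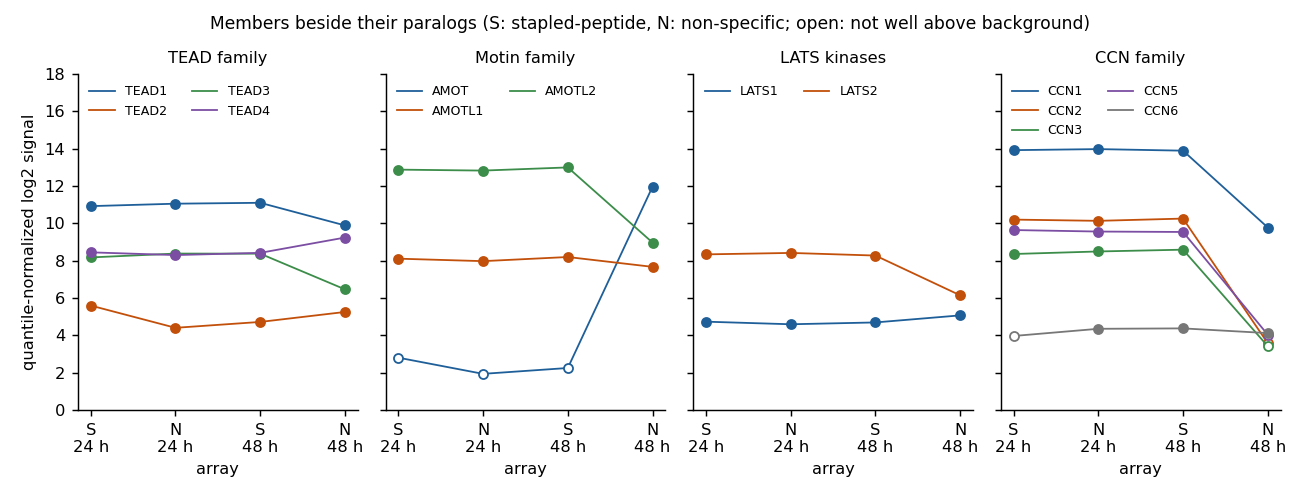
Quantile-normalized log2 signal (vertical axis) on the 4 arrays (horizontal axis) of the TEAD, motin, LATS and CCN genes, with open points where the probe was not well above background. Lines join the points of a gene and are no time course, and CCN4 is left out as dim on all arrays. On N48 AMOTL2 is lower and AMOT higher, LATS2 is lower and LATS1 nearly level, and CCN1 stays at 9.78 where CCN2, CCN3 and CCN5 are dim.

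The Hippo kinases and their upstream regulators were a list of 16 genes, which went both ways at 48 h. Their median difference was 0.00 at 24 h and -0.49 at 48 h, with 10 below and 6 above 0. Past 2-fold 5 were lower and 1 higher, against 19.8% and 21.2% of all genes. By more than 4-fold 2 were lower and 1 higher, against 8.7% and 8.1% of all genes, so these counts among 16 genes do not set the list apart. FRMD6, a membrane protein upstream of the kinases, read 9.29, 9.38, 9.28 and 6.35 (-2.93), and PTPN14, a phosphatase that binds YAP, read 12.21, 12.29, 12.40 and 9.56 (-2.85), with -2.92 and -3.32 at its other probes. AMOT was the higher one. The MST kinases split, with STK3 (MST2) at 0.82 and STK4 (MST1) at -0.88. NF2 (merlin), an upstream tumour suppressor, differed by -0.14 and the scaffold SAV1 by 0.15. At a second, dimmer probe STK4 gave -1.27 and NF2 -0.70. The LATS cofactors MOB1A and MOB1B differed by -1.59 and -1.16. The other probes of MOB1B gave -0.33 and -0.93, the first of them nearly as bright.

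A second list held 17 further genes used as readouts of YAP and TEAD, of which 16 had a difference at 48 h and CRIM1 was dim on all arrays. Their median difference was 0.15 at 24 h, where none passed 4-fold (0.413% of all genes did). At 48 h it was -2.90, and 11 were lower and 1 higher by more than 4-fold, against 8.7% and 8.1% of all genes. The lowest was MYOF, a membrane-repair protein, with 12.52, 12.63, 12.57 and 4.53 (263-fold lower), followed by NT5E (CD73, the enzyme that makes adenosine) at 84.9-fold lower and AXL, a receptor tyrosine kinase, at 33.1-fold lower (12.48, 12.57, 12.53 and 7.48). F3 (tissue factor, the starter of clotting) was 30.7-fold lower. IGFBP3, a binder of insulin-like growth factors, and TGFB2, a TGF-beta ligand, were each at least 18.9-fold lower and not well above background on the last array. CCDC80, DOCK5, NUAK2 and ARHGEF17 were lower by 17.4-fold, 7.76-fold, 6.62-fold and 6.49-fold, and PTPN14, shared with the Hippo list, by 7.19-fold. FOXF2, a forkhead factor, was the higher one, with 6.09, 6.42, 6.23 and 8.27 (4.12-fold), and with normexp its difference was 1.39. At a second, dimmer probe MYOF and NT5E were at least 26.6-fold and 27.4-fold lower, DOCK5 was 4.04-fold lower and CCDC80 at least 3.47-fold lower.

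The LIM proteins related to AJUBA were a list of 5. Their median difference was -0.07 at 24 h and -1.45 at 48 h. Only LPP was lower by more than 4-fold at 48 h (7.79, 8.14, 8.21 and 5.05), against 8.7% of all genes. ZYX (zyxin), a focal adhesion protein, differed by -1.45, TRIP6 by -1.41 and WTIP by -1.67, close to the -1.25 of AJUBA. LIMD1 was higher by 0.83.

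**Figure D5:**
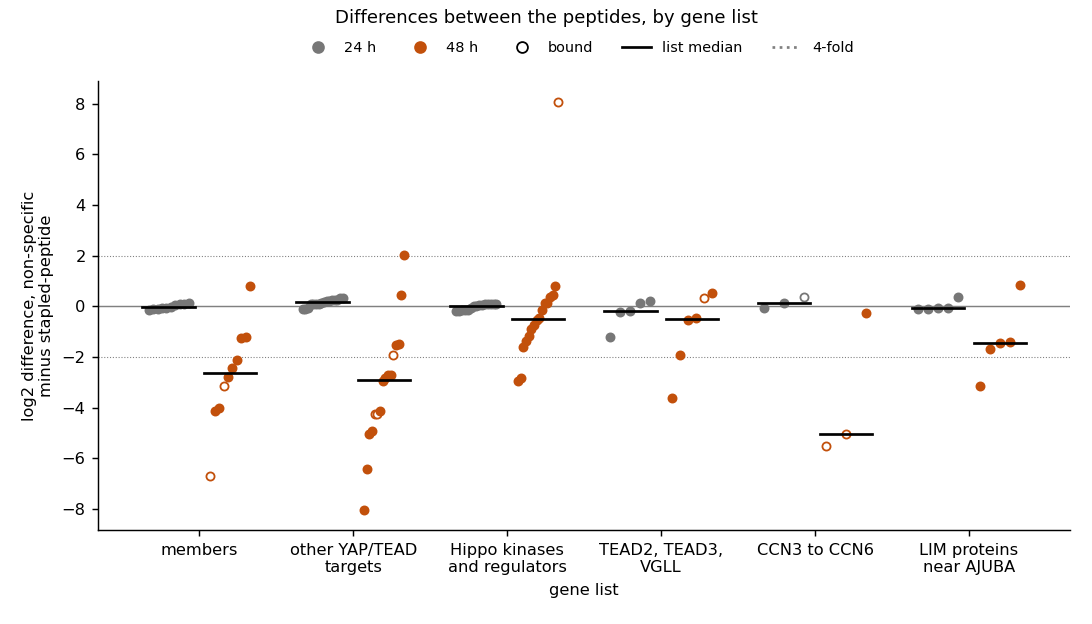
Log2 difference between the peptides (vertical axis) for each gene of the 6 lists (horizontal axis) at 24 h (grey) and 48 h (orange), with open points for bounds, bars for list medians and dotted lines at 4-fold. All grey points lie within 4-fold, and the 48 h medians run from -5.03 (CCN3 to CCN6) to -0.49 (TEAD2, TEAD3 and the VGLL genes, and the Hippo kinases and regulators).

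Few genes outside the lists are named here, and only by likeness of pattern. Among 14040 genes well above background on all 4 arrays, likeness was the Euclidean distance between log2 signals centred on each gene's mean over the 4 arrays. Nearest to YAP1 were CYP2U1 (distance 0.01), KRT8 (0.02) and EGFLAM (0.03), and nearest to CCN1 were ACSL1 (0.04), FKBP5 (0.05) and PSCA (0.06). KRT8 read 11.75, 11.77, 11.80 and 9.01. A pattern over 4 arrays of which 3 are nearly level is set by the last array, so many genes match closely. CCN2 was dim on 1 array and had no such neighbours.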

How the data were processed

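Each array file holds linear spot intensities that the authors made with Agilent Feature Extraction (version 10.7.1.1 per the file headers, 9.5 per the submitters' notes), with the background subtracted and no normalization between arrays. A deposited table of the series holds the mean intensity over the spots of each probe. Here, control spots and spots marked as outliers were left out, log2 signals were averaged per probe, quantile-normalized over 4 arrays as the study's methods state, with a floor of 1 on the signal. Of 50599 probes 9 had no spot left, and 28164 of the other 50590 (55.7%) were named through RefSeq. Each array had 58717 spots besides controls, of which 62.5% to 65.7% were well above background and none was saturated. The SD over repeat spots, known for probes spotted more than once, had a median of 0.09 to 0.10 (log2), and the software gives an error for each signal. Where a probe was dim on 1 array of a pair, the difference is a bound. A gene is represented by the probe of highest mean signal, and past 4-fold counts as different. Named were the 10 genes, genes of the lists past 4-fold at 48 h and up to 3 others per list with the largest difference, the 3 nearest in pattern, and, chosen after their values were seen, further genes that serve as counterparts or complete a family. The 10 genes and the lists were chosen with earlier results of these data known. Alternatives are given in the closing section. The steps were tested on simulated data for the 48 h comparison over 50590 probes, where 100 of 100 probes changed 8-fold and 0 of 100 changed 2-fold passed 4-fold, as did 0 of 30719 unchanged ones. The simulated noise was smaller than the spread between the real arrays, and only bright probes were changed. The outcome followed from these settings, so it checks the code and gives no error rate for the real data or for dim probes. Tools were limma 3.58.1 (R 4.3.3) and Python 3.11.15 (pandas 2.3.3, numpy 2.4.6, matplotlib 3.10.9, scipy 1.17.1). The RefSeq build GRCh38.p14 is newer than that of the array grid, so gene positions are not printed beyond the promoter windows.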

Additional observations from a re-analysis of the deposited data

Results flagged for a closer look

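For 4 genes, effects pointed in opposite directions under the same contrast, each larger than 0.43, the SD of all probe differences at 24 h. ANKRD1 was higher on S48 than on S24 (0.57, log2) and lower on N48 than on N24 (-2.48, a bound). DOCK5, an activator of the GTPase Rac, gave 0.43 and -2.43, and RBMS3, an RNA-binding protein, 0.52 and -1.65 (a bound), in the same order. A second, dimmer probe of DOCK5 gave 0.32 and -1.49, the first of them under the mark of 0.43. TEAD2 was lower on N24 than on S24 (-1.19) and higher on N48 than on S48 (0.53), and its time difference was -0.88 from S24 to S48 and 0.85 from N24 to N48. With normexp every one of these values was smaller in size, with the same sign. TEAD2 then gave peptide differences of -0.46 and 0.12 and time differences of -0.30 and 0.28, ANKRD1 time differences of 0.35 and -0.98, DOCK5 0.26 and -1.01, and RBMS3 0.20 and -0.50. The difference between the effects was not tested, since each rests on 1 array per group. The effects share arrays, and 1 effect in every pair uses N48.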

How the results depend on the processing

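Other settings tried were 75th-percentile scaling, unnormalized signals, normexp, dim probes taken at their own value or left out (which keeps 8 of the 10 at 48 h), outlier spots retained, the authors' table, probes averaged per gene, and other thresholds. Every one of the 10 genes that had a value kept the sign of its 48 h peptide difference under them. The count lower by more than 4-fold, 7 of 10 at 48 h, was 4 with normexp background correction (offset 50), 6 without normalization, 5 of the 8 with dim probes left out, and 3 at a 10-fold and 1 at a 100-fold threshold. The median difference, -2.61, was -1.45 with normexp. From N24 to N48 the count of 7 was 4 with normexp, 3 at 10-fold and 0 at 100-fold, and the median of -2.43 was -1.42 with normexp. Of the 10 genes, normexp moved WWTR1, CCN2, ANKRD1 and LATS2, and of 45 other genes of the lists it moved 18, at 48 h. ANKRD1 ranged from -4.42 to -1.40 over all settings, CCN2 from -7.03 to -3.85 and WWTR1 from -2.69 to -1.09. YAP1 stayed between -2.83 and -2.48, and TEAD4 between 0.68 and 1.11. Without normalization the median of all genes at 48 h was 0.26 in place of 0.03. FOXF2 was no longer higher by more than 4-fold with normexp or with outlier-marked spots kept. No paired analysis was possible because each group holds 1 array and no test was made. Depth here is signal over background, which limits CCN2 and ANKRD1 to bounds at 48 h, and 1 probe per gene leaves no second reading of any of the 10.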

Other observations

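In the promoter windows of the other lists, GGAATG or CATTCC occurred in 5 of 13 windows (38.5%) of the further readouts of YAP and TEAD, in 4 of 10 (40.0%) of the LIM proteins related to AJUBA, in 2 of 21 (9.52%) of the Hippo kinases and regulators and in 1 of 11 (9.09%) of the TEAD and VGLL genes, against 14.0% of all windows. Of the other CCN genes CCN6 had a window, and it held 2 matches. In the LIM list WTIP, a LIM protein of cell junctions, held 3 matches in its window, and among the readouts NUAK2, a kinase of the AMPK family, held 2. These counts come from few windows, some of them of the same gene, and no test was made. Of the readouts lower by more than 4-fold at 48 h, AXL, TGFB2, PTPN14 and NUAK2 held a match. MYOF, NT5E, F3, IGFBP3 and CCDC80 held none in their windows, and DOCK5 and ARHGEF17 had no window. FOXF2, the readout that was higher, held 1.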
